A study of Rattus norvegicus with 46 samples.

Results

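The comparison was between gastrocnemius muscles from left legs that had been moved passively for 9 to 14 d and left legs moved for 6 h to 4 d, in rats kept under paralysis and mechanical ventilation. The arrays were chosen by their titles, which name the loaded leg and the window of duration, and 19 of the 46 arrays of the series belong to it. The 9 to 14 d window held 6 legs and the 6 h to 4 d window 13 legs, with 1 array for each leg and a different rat behind every array. They are called the late and the early legs below. Another 4 loaded legs, from 5 to 8 d, entered the fit and are given as a middle window. All rats were female Sprague-Dawley animals anaesthetised with isoflurane, infused with α-cobrotoxin and ventilated, so the windows differ in the duration of the whole intensive care regime and not in loading alone. A lever moved the ankle of the left leg at 13.3 cycles per minute, for 12 h per day in all but the shortest experiment, where it ran for 6 h. The right leg of each rat was not moved, and the 23 arrays of those unloaded legs are used here only for values side by side. The labels give a window for each rat and not its exact duration, and they give no age. No untreated rat was among the samples, so the 6 h to 4 d legs are early samples of the same regime and not healthy muscle. The muscle piece came from the proximal part of the gastrocnemius, and its RNA was hybridised to single-colour Affymetrix arrays.

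α-Cobrotoxin binds the nicotinic acetylcholine receptor of the muscle end plate, so that nerve impulses no longer excite the fibre. In adult rodent muscle an active nerve keeps receptor genes silent outside the end plate, and when activity stops fibres switch on the receptor subunits, the fetal γ subunit among them, together with myogenin and the adhesion molecule NCAM. Idle muscle is also known for loss of contractile protein through the ubiquitin-proteasome and lysosomal routes and for lower oxidative and glycolytic enzyme levels. Passive movement puts stretch on fibres, tendon and matrix without any contraction of the muscle's own.

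Values below are log2 intensities after RMA, the authors' array normalization, and differences are those of the 9 to 14 d mean minus the 6 h to 4 d mean on that scale, with the standard error (SE) of limma's moderated fit and a p-value adjusted by Benjamini-Hochberg over all 9289 genes tested. A gene is said to have risen or fallen where this adjusted p is below 0.05. The lowest, median and highest value of the 6 legs and of the 13 legs are given in that order. The counts of a list are to be read against the share of all genes that passed in the same direction, 29% higher and 15.2% lower. For the other fits that share is given with the counts of all genes.

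The 11 skeletal muscle fibre markers on the array were all above the array background, with a mean level of 13.31 to 13.57 in the 9 to 14 d legs and 13.44 to 13.68 in the 6 h to 4 d legs. None of the 9 liver markers and none of the 8 neutrophil markers on the array had a mean above the lowest array median of 6.07, the level used here as background. Single loaded legs reached 8.09 for the liver marker Cyp2e1 and 7.35 for the neutrophil marker S100a9. Of the 2 neutrophil markers tested 1 rose, and 0 after median-centring. Of the variance of the 23 loaded legs 45.3% lay along 1 principal component, which set the early legs apart from both later windows. The 5 to 8 d and 9 to 14 d legs overlapped on it. Among the 6 h to 4 d legs, numbers 36 and 38 lay nearest the later windows on it and numbers 24, 30 and 32 lay between. Late legs 50 and 52 stood apart from the rest on the next component, which held 13.5%. Legs 22 and 28 were the closest pair, with an SD of 0.145 for their log2 differences against a median of 0.622 over 253 pairs, and were kept as separate samples. A code at the end of the array descriptions, whose meaning the labels do not state, differed between the windows. Of the 9 to 14 d legs, 4 carried code 3 and 2 code 5, against 1, 2, 4 and 6 of the 6 h to 4 d legs with codes 1, 2, 3 and 4. Only code 3 held legs of both windows, so the fit with the code as a block and the comparison of 4 with 4 legs inside code 3 are given beside the counts. The 4 early legs of code 3 were 32, 34, 36 and 38. They include legs 36 and 38, nearest the later windows, and leg 32, which lay between. The part of these legs in the calls lost under the block or inside code 3 was not tested.

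**Figure D1:**
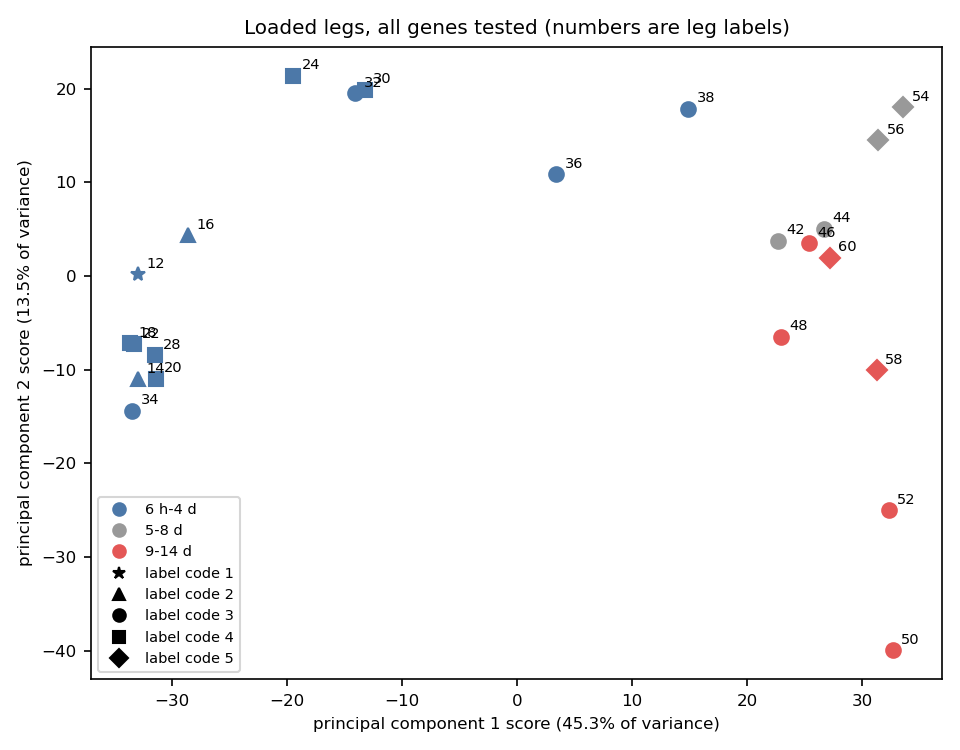
Scores of the 23 loaded legs on the leading (45.3% of variance) and next (13.5%) principal components of 9289 genes, with the leg number beside each point and the marker shape for the label code. The 9 to 14 d and 5 to 8 d legs lie at the right end of the horizontal axis, and legs 36 and 38 are the 6 h to 4 d legs closest to them.

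The windows differed in a large share of the genes measured. Of the 9289 genes, 4110 (44.2%) passed, of which 2696 (29%) were higher and 1414 (15.2%) lower in the 9 to 14 d legs. A difference of at least 2-fold was reached by 549 of them (5.91%), 330 higher (3.55%) and 219 lower (2.36%). In 672 genes (7.23%) the 2 sets of legs did not overlap at all, with 491 higher (5.29%) and 181 lower (1.95%). The balance between directions depended on the scaling of the arrays. The median difference of all genes was 0.0763, and the higher genes made up 65.6% of those passing, against 52.8% after cyclic loess (2122 higher and 1898 lower) and 43% after centring each array on its median (1761 higher and 2338 lower). Centring moved the median of all genes by -0.139. With the label code as a block 1862 genes passed (20%), 1199 higher (12.9%) and 663 lower (7.14%), and inside code 3 331 passed (3.56%), 219 higher (2.36%) and 112 lower (1.21%). Of the 4110 genes, 3065 passed with any 1 of the arrays left out, and so did 532 of the 549 genes with at least a 2-fold difference. Of the 165 genes named in the text that passed, 125 also passed under the block and 50 inside code 3.

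**Figure D2:**
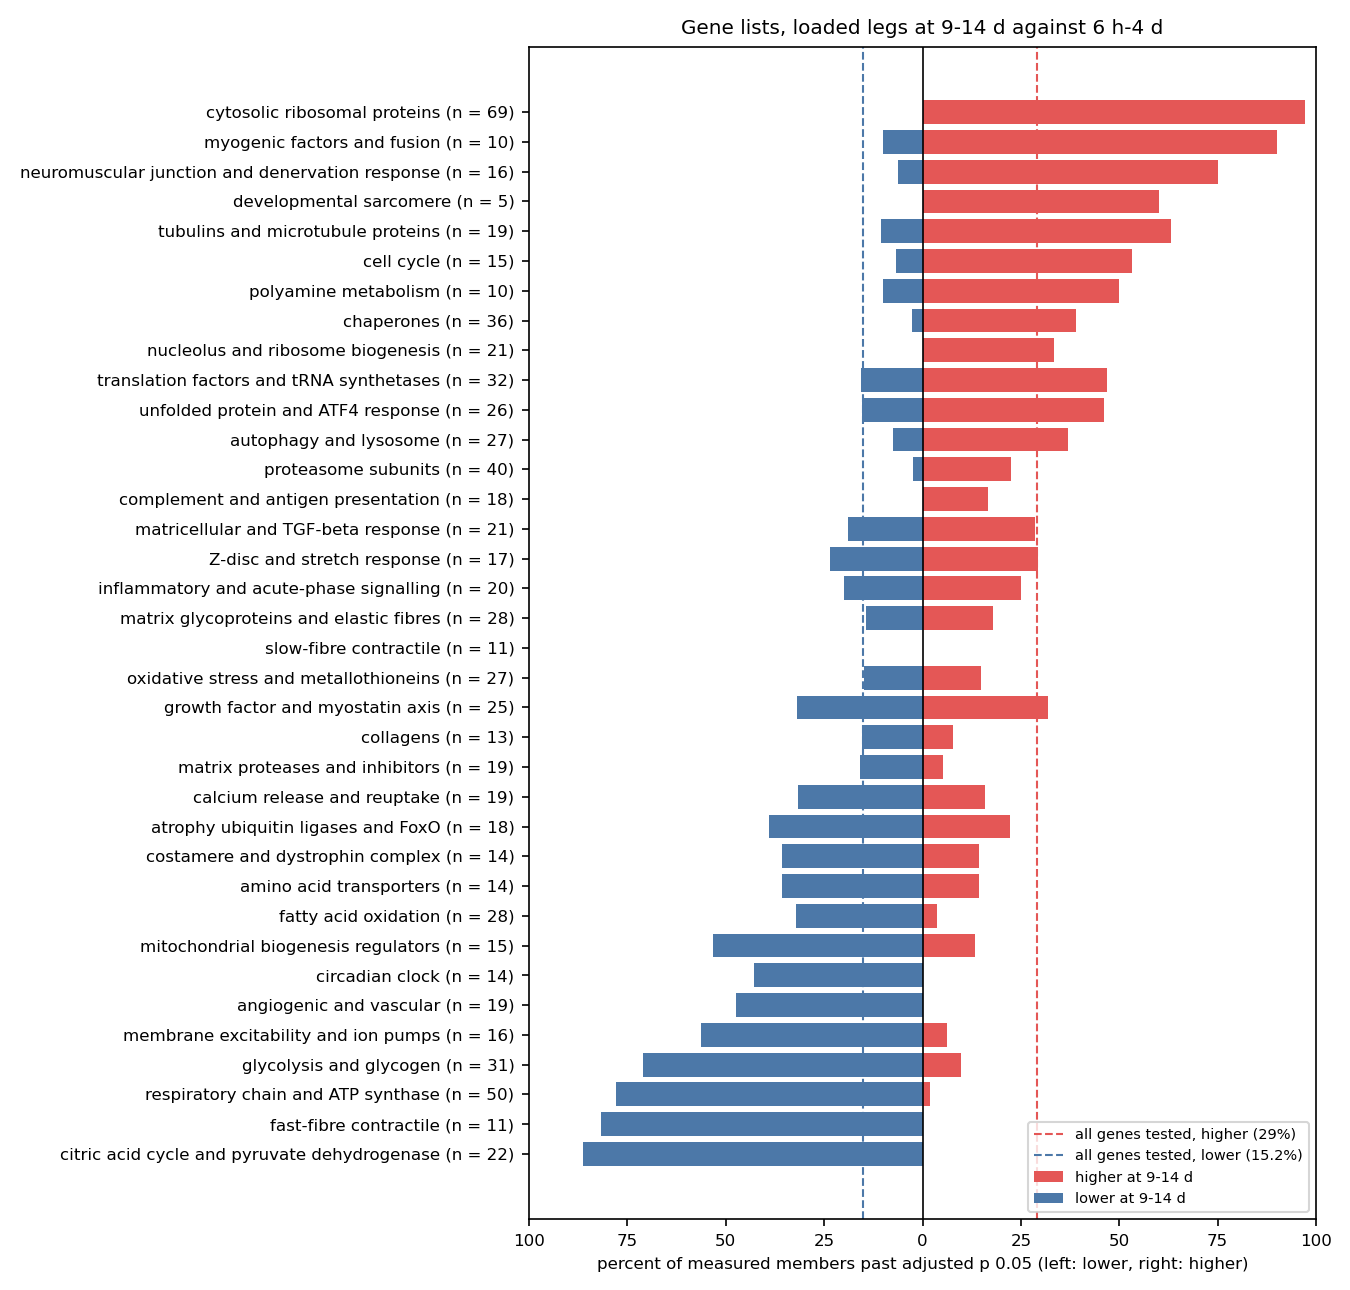
Share of the measured members of each of the 36 pathway lists that were higher (right, red) or lower (left, blue) in the 9 to 14 d than in the 6 h to 4 d loaded legs at an adjusted p below 0.05, with dashed lines at the share of all genes tested. Ribosomal proteins and the neuromuscular junction list lie far to the right, and respiratory chain, citric acid cycle, glycolysis and fast-fibre genes far to the left.

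All 5 acetylcholine receptor genes rose, with Chrna1 by the most, and the DNA before their starts is shown because members of a receptor moved together and because E-boxes, the CANNTG letters bound by myogenic factors such as myogenin, are known in rodent receptor promoters. The stretches hold the 250 bases before and the 50 after each start in RefSeq's rat assembly GRCr8, on the strand of the gene, with every CANNTG in capitals. CANNTG reads as CANNTG on the other strand too, and CAGCTG is one of its forms.
Chrna1 chr3:78877304-78877603 (minus strand): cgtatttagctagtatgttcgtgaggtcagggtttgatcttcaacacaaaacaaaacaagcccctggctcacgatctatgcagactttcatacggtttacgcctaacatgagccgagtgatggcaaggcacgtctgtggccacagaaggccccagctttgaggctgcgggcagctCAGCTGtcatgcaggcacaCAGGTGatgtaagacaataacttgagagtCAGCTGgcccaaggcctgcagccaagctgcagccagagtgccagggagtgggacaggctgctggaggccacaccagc
Chrnb1 chr10:55015058-55015357 (minus strand): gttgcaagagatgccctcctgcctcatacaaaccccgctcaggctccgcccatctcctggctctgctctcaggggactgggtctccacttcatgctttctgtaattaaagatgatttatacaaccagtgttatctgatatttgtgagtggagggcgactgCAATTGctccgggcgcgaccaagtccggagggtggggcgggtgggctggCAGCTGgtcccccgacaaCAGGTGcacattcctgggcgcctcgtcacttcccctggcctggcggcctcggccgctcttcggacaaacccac
Chrnd chr9:95310066-95310365 (plus strand): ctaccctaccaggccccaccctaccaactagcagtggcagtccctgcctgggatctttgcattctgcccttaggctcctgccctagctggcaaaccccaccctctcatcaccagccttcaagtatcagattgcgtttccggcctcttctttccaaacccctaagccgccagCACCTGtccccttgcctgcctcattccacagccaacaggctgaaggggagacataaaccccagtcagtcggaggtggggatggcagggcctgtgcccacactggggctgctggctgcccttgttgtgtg
Chrng chr9:95325734-95326033 (plus strand): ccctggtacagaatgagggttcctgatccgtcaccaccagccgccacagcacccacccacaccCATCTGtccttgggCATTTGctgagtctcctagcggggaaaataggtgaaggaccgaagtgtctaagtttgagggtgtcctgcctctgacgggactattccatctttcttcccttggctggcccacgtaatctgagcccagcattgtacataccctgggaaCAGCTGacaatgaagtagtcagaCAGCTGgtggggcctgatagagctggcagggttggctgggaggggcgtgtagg
Chrne chr10:55834105-55834404 (minus strand): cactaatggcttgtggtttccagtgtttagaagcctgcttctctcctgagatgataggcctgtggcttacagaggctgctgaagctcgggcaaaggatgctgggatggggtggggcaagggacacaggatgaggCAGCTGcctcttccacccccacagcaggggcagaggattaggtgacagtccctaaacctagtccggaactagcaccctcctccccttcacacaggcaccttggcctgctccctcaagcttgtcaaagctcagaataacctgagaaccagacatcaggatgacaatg

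The CAGCTG form occurred in 4 of the 5 receptor promoters and in 15.1% of all 33469 promoters of the same length, and CANNTG of any form in 5 of 5 and in 72.1%. Among the 7736 tested genes with a promoter in the table the shares were 16.8% for CAGCTG and 63.0% for CANNTG. Chrna1 held CAGCTG 75 and 27 bases before the start, Chrnb1 41 bases before it, Chrng 26 and 3 bases before it and Chrne 116 bases before it. Chrnd held CACCTG, 79 bases before the start, as its only match. A match of these letters is a description of the window and says nothing of binding in these legs.

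Genes of the neuromuscular junction and of the response to denervation were higher after 9 to 14 d. Of 16 measured members of this list 12 rose and 1 fell, with a median log2 difference of 1.98, and 10 rose at least 2-fold. Chrna1, the ligand-binding α subunit, had values of 12.6, 13.2 and 13.5 in the 9 to 14 d legs, against 6.73, 8.32 and 10.6 in the 6 h to 4 d legs. The lowest late leg stood above the highest early leg, and the mean difference was 4.90 (SE 0.59), or 29.8-fold (limma adjusted p = 9.43e-07). Chrnd, the δ subunit, had 10.9, 11.1 and 11.4 in 9 to 14 d legs and 5.91, 6.81 and 9.32 in 6 h to 4 d legs. These values did not overlap either, and the difference was 3.67 (SE 0.50, adjusted p = 5.08e-06). Chrng encodes the γ subunit, which fetal and denervated muscle uses. Its values were 7.32, 9.68 and 10.6 after 9 to 14 d, against 6.21, 6.72 and 6.98 after 6 h to 4 d, a difference of 2.69 (SE 0.35, adjusted p = 2.91e-06) with no overlap. Chrne, the ε subunit of the adult receptor, rose as well, with 7.74, 8.46 and 9.47 in 9 to 14 d legs and 5.34, 5.93 and 8.73 in 6 h to 4 d legs. Here the windows overlapped, since legs 14 and 38 of the early window lay among the late legs, and the difference was 2.10 (SE 0.44, adjusted p = 0.000571). Chrnb1, the β subunit, changed least of the 5, with a difference of 1.03 (SE 0.10, adjusted p = 8.73e-08), from values of 10.7, 10.8 and 11.03 in 9 to 14 d legs and 9.52, 9.85 and 10.4 in 6 h to 4 d legs.

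Ncam1, the neural cell adhesion molecule that spreads over inactive fibres, had 12.1, 12.7 and 13.2 in the 9 to 14 d legs, against 8.43, 9.50 and 10.5 in the 6 h to 4 d legs. All late legs lay above all early ones, a difference of 3.23 (SE 0.29, adjusted p = 2.25e-08). Musk, the receptor kinase that organises the end plate, differed by 1.86 (SE 0.30, adjusted p = 3.14e-05). Runx1, a transcription factor induced in denervated muscle, differed by 2.91 (SE 0.39, adjusted p = 4.37e-06). Musk and Runx1 fall outside the rule for naming genes and were named after their values were seen. Dok7, the adaptor that activates MuSK, was the member that fell, with a log2 difference of -0.37 (SE 0.14, adjusted p = 0.0375). Its call was lost when any 1 of legs 16, 18, 20, 22, 38, 46, 48, 50 or 52 was left out, with adjusted p up to 0.124, and also without legs 36 and 38. With the label code as a block 8 members of the list were higher and 1 lower, and inside code 3 4 were higher and none lower. The plot of receptor and junction genes by window shows each leg.

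**Figure D3:**
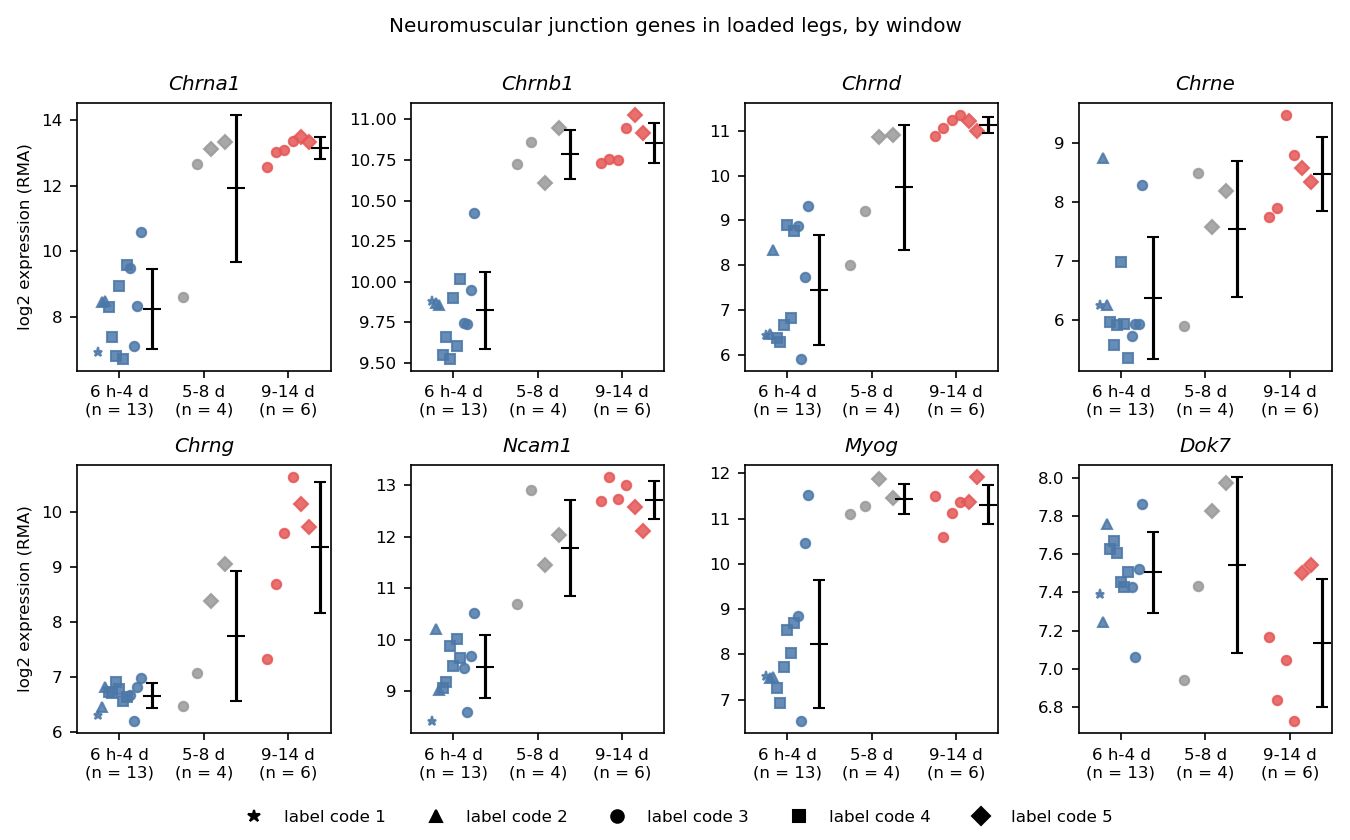
Log2 intensity of 8 neuromuscular junction and myogenic genes in each loaded leg by window of duration, with the marker shape for the label code and a bar for the mean ± SD of each window. Chrna1, Chrnd, Chrng and Ncam1 of the 9 to 14 d legs lie above every 6 h to 4 d leg, while Myog and Chrne overlap.

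Factors of the myogenic programme were higher in the 9 to 14 d legs, and a few genes of immature muscle with them. Of 10 measured myogenic factors 9 rose and 1 fell, with a median difference of 0.68, and 4 rose at least 2-fold. Myog, the factor that drives late differentiation of muscle cells and responds to denervation, had 10.6, 11.4 and 11.9 in 9 to 14 d legs and 6.53, 7.72 and 11.5 in 6 h to 4 d legs. Early leg 38 lay among the late legs, leg 36 just below them, and the other 11 lower still. The difference was 3.08 (SE 0.51, adjusted p = 5.29e-05), with an adjusted p of 0.0555 once the label code was a block. Myf5, a factor of muscle precursor cells, had 7.65, 9.64 and 10.8 after 9 to 14 d, against 6.76, 7.03 and 8.04 after 6 h to 4 d. Leg 48 alone of the late legs lay within the early range, and the difference was 2.44 (SE 0.30, adjusted p = 1.27e-06). Mymk encodes the membrane activator of myoblast fusion. It lay below background in the 6 h to 4 d legs, so that the size of its difference of 3.00 is uncertain (SE 0.36, adjusted p = 8.56e-07). Mef2d, a MEF2 transcription factor that works with the myogenic factors, fell by 0.53 (SE 0.18, adjusted p = 0.0223), a call lost without leg 58 or leg 60 (adjusted p up to 0.0901). With the label code as a block 3 of the 10 factors were higher and none lower, and inside code 3 1 was higher. Of 5 satellite cell markers 2 rose and 3 fell, so that this marker list did not move one way.

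Of the 5 genes of the developmental sarcomere 3 rose and none fell. Myh3, the embryonic myosin heavy chain, had 6.46, 10.2 and 11.02 in the 9 to 14 d legs and 6.45, 7.50 and 8.57 in the 6 h to 4 d legs. Legs 46 and 48 lay no higher than the top of the early range and the other 4 late legs above it, and the mean difference was 1.99 (SE 0.51, adjusted p = 0.00308). Tnnt2, the troponin T of heart and immature skeletal muscle, had 6.90, 7.81 and 10.5 after 9 to 14 d, against 5.95, 6.43 and 7.18 after 6 h to 4 d. Legs 50 and 52 stood far above the rest, and the difference was 1.92 (SE 0.40, adjusted p = 0.000508). Myh10, a non-muscle myosin, differed by 0.89 (SE 0.33, adjusted p = 0.0321). That call was lost without leg 50, 52, 58 or 60 (adjusted p up to 0.0854) and after cyclic loess or median-centring. With the label code as a block Tnnt2 alone of the 5 genes passed, and inside code 3 none did.

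The 10 largest rises among genes above background in both windows took in 4 of the genes above and 6 others. Ankrd1, a stretch-responsive repeat protein of the sarcomere's I-band and nucleus, had 9.93, 12.98 and 13.2 in 9 to 14 d legs, against 5.99, 7.93 and 12.5 in 6 h to 4 d legs. Leg 48 stood apart from the other 5 late legs at the low end, and early leg 38 reached 12.5. The difference was 4.46 (SE 0.69), or 22-fold (adjusted p = 2.03e-05). Sln, sarcolipin, an inhibitor of the calcium pump SERCA, had 12.7, 13.8 and 13.97 in 9 to 14 d legs and 7.73, 8.89 and 13.00 in 6 h to 4 d legs. Only leg 38 of the early window lay within the late range, and the difference was 4.01 (SE 0.57, adjusted p = 7.62e-06). Cst7, cystatin F, an inhibitor of lysosomal cysteine proteases known from immune cells, had 9.21, 10.6 and 11.9 in 9 to 14 d legs, against 6.02, 6.66 and 7.13 in 6 h to 4 d legs. The windows did not overlap, with a difference of 4.07 (SE 0.33, adjusted p = 8.71e-09). Ctxn3, a small membrane protein, had 9.18, 9.69 and 11.4 after 9 to 14 d and 5.49, 5.98 and 7.23 after 6 h to 4 d. It too showed no overlap, with a difference of 3.87 (SE 0.32, adjusted p = 1.28e-08). Klk1, tissue kallikrein, which frees kinins from kininogen, had 9.04, 10.5 and 11.6 in 9 to 14 d legs, against 5.90, 6.85 and 8.57 in 6 h to 4 d legs. All late legs lay above the early ones, by 3.64 on average (SE 0.41, adjusted p = 4.25e-07). Tubb6, a β-tubulin of the microtubules, differed by 3.01 (SE 0.39, adjusted p = 2.5e-06).

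Another 5 genes rose out of the background, and the log2 difference given for each has an uncertain size. Emb, embigin, a cell adhesion protein and partner of monocarboxylate transporters, had 10.4, 11.02 and 11.9 in 9 to 14 d legs, against 4.63, 5.37 and 8.59 in 6 h to 4 d legs. Early legs 36 and 38 were the only ones above 6.07, and the difference was 5.27 (SE 0.55, adjusted p = 1.87e-07). Dclk1, a microtubule-binding kinase, had 9.92, 10.96 and 11.1 after 9 to 14 d, against 5.28, 5.88 and 7.41 after 6 h to 4 d, a difference of 4.79 (SE 0.35, adjusted p = 2.16e-09) with no overlap. Ppp1r14c, an inhibitor of protein phosphatase 1, differed by 3.77 (SE 0.39, adjusted p = 1.31e-07). Slc51a, the α subunit of a steroid and bile acid transporter, differed by 3.63 (SE 0.33, adjusted p = 2.58e-08). Adra1b, an adrenergic receptor, differed by 3.52 (SE 0.48, adjusted p = 4.69e-06).

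**Figure D4:**
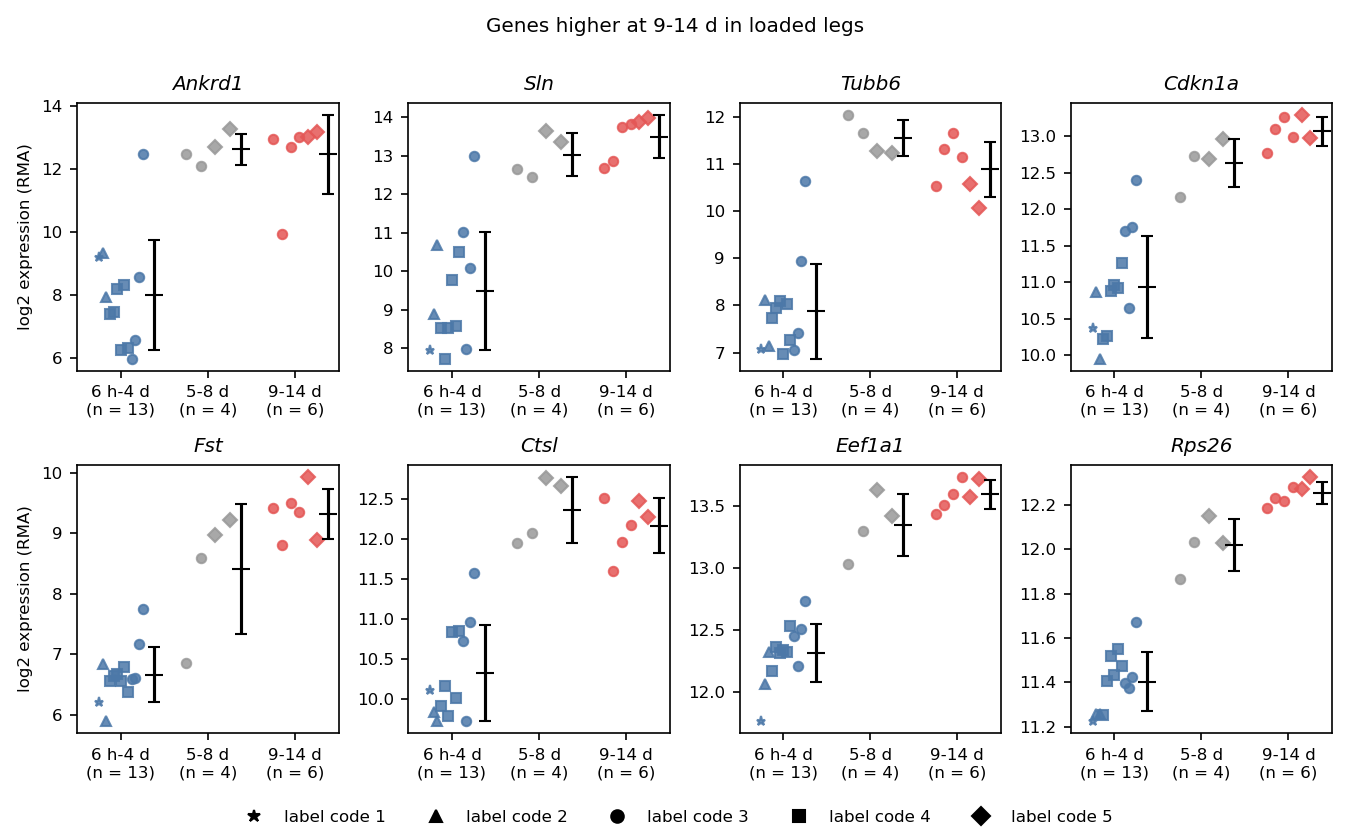
Log2 intensity of 8 genes that were higher at 9 to 14 d in each loaded leg by window of duration, with the marker shape for the label code and a bar for the mean ± SD of each window. Ankrd1 of leg 48 lies below the other late legs, and Eef1a1 and Rps26 are narrowly spread within each window.

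The 10 largest falls among genes above background in both windows took in Slc16a3 and Pfkfb1 of the glycolysis list, Ostn and Mstn of the growth signalling list and 6 genes of no list. Ostn, osteocrin or musclin, a peptide secreted by active muscle, had 5.19, 5.87 and 7.83 in the 9 to 14 d legs and 5.12, 10.9 and 12.3 in the 6 h to 4 d legs. Early legs 24, 36 and 38 lay within the late range or beyond it, and the other 10 above it. The difference was -3.91 (SE 0.84, 15-fold lower, adjusted p = 0.000685), with 0.15 under the label code block. Slc16a3, the lactate exporter MCT4 of fast glycolytic fibres, had 6.19, 7.23 and 8.53 in 9 to 14 d legs, against 8.43, 11.7 and 12.3 in 6 h to 4 d legs. Leg 38 was the one early leg inside the late range, and the difference was -3.75 (SE 0.52, adjusted p = 6.19e-06). Pfkfb1, an enzyme that sets the level of the glycolytic activator fructose bisphosphate, had 5.65, 6.43 and 7.35 after 9 to 14 d and 7.90, 10.3 and 10.7 after 6 h to 4 d. The windows did not overlap, and the difference was -3.44 (SE 0.38, adjusted p = 2.99e-07). Mstn, myostatin, the secreted brake on muscle growth, had 5.78, 6.32 and 8.13 in 9 to 14 d legs, against 6.97, 9.43 and 11.04 in 6 h to 4 d legs. The low early legs were 24 and 38, and the difference was -2.89 (SE 0.51, adjusted p = 9.17e-05), with 0.0643 under the block. Mss51, a mitochondrial regulator that TGF-β family signals induce in muscle, differed by -3.22 (SE 0.66, adjusted p = 0.000463; 0.0987 under the block).

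Cmbl, a hydrolase, had 7.28, 7.91 and 8.32 in 9 to 14 d legs, against 10.3, 11.2 and 11.4 in 6 h to 4 d legs, a difference of -3.22 (SE 0.22, adjusted p = 9.17e-10) with a wide gap between the windows. Lynx1, a toxin-like modulator of nicotinic receptors, differed by -2.76 (SE 0.32, adjusted p = 5.45e-07), again without overlap. The arrestin-like Arrdc2 differed by -2.65 (SE 0.31, adjusted p = 6.01e-07). Adhfe1, a mitochondrial enzyme, fell by 2.60 (SE 0.23, adjusted p = 2.57e-08). Mlf1, a nuclear and cytoplasmic protein named for myeloid leukaemia, fell by 2.56 (SE 0.41, adjusted p = 2.99e-05). Another 5 genes fell into the background, where the size is uncertain. They were the muscle water channel Aqp4 (-3.39), the secreted protein Lgi2 (-2.86), the carbonic anhydrase Car12 (-2.80), the gluconeogenic enzyme Fbp2 (-2.73) and the growth factor Fgf2 (-1.84). Under the label code block Lgi2, Car12 and Fgf2 did not pass, with adjusted p of 0.0869, 0.104 and 0.359.

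**Figure D5:**
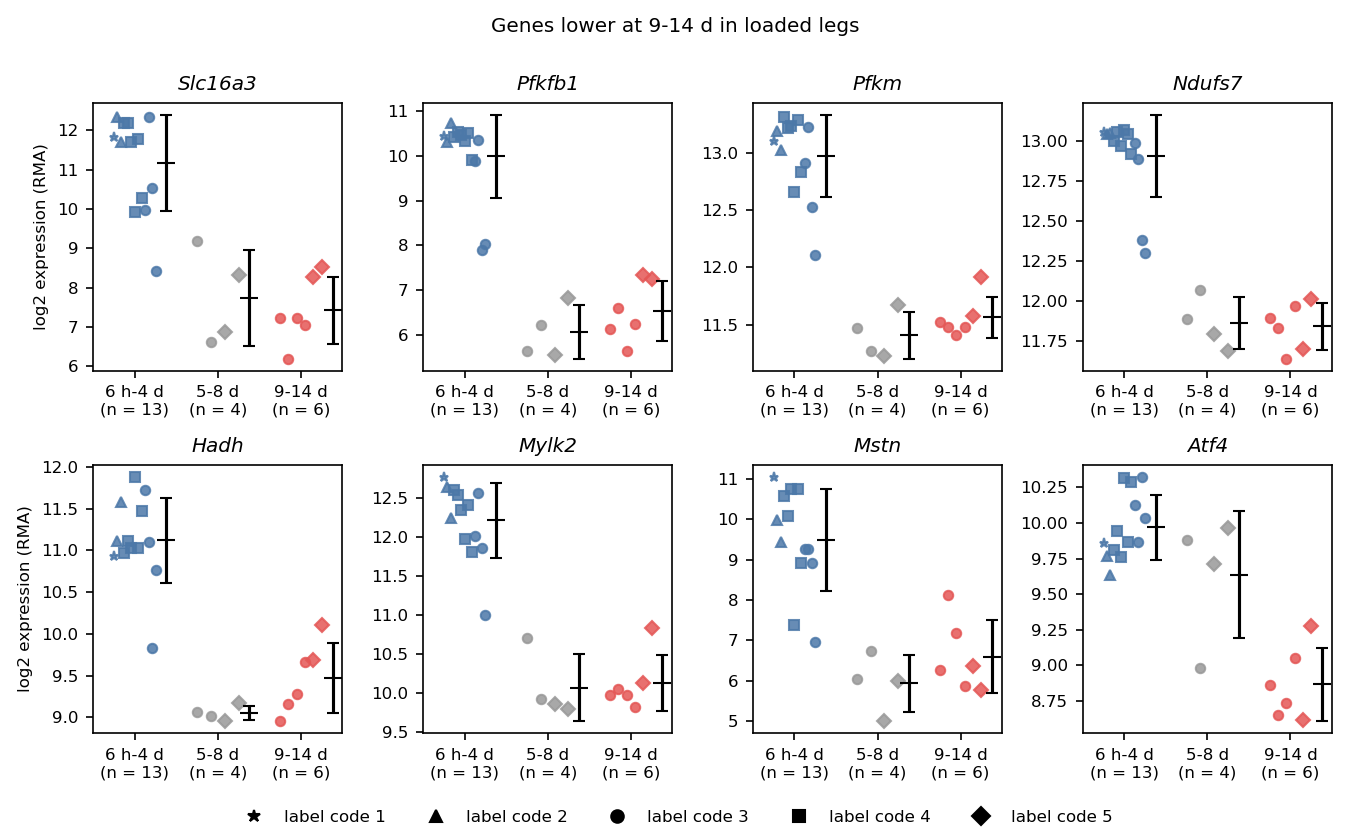
Log2 intensity of 8 genes that were lower at 9 to 14 d in each loaded leg by window of duration, with the marker shape for the label code and a bar for the mean ± SD of each window. Slc16a3, Pfkfb1 and Mstn of the 9 to 14 d legs lie near the bottom of their panels. In the Slc16a3 and Mstn panels the 6 h to 4 d legs are spread widely, with leg 38 among the lowest of them.

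Fast-fibre contractile genes were lower, while no slow-fibre gene passed. In a piece of whole muscle, fewer cells of a type and less RNA per cell cannot be told apart. Of 11 fast-fibre genes 9 fell and none rose, with a median of -0.37, and of 11 slow-fibre genes 0 passed, with a median of -0.12. By limma the unadjusted count for the slow-fibre genes was 0 of 11 at a p below 0.05. After median-centring 1 slow-fibre gene was lower. Without legs 24, 30, 32, 36 and 38, 1 was higher and the median turned to 0.0829. Inside code 3 the median was -0.273 and none passed. A gene that did not pass is not thereby shown to be unchanged. Mylk2, the kinase of fast myosin light chains, had 9.82, 10.01 and 10.8 in 9 to 14 d legs and 10.99, 12.4 and 12.8 in 6 h to 4 d legs. The values did not overlap, and the difference was -2.09 (SE 0.21, adjusted p = 9.84e-08). Mybpc2, fast myosin-binding protein C, differed by -2.38 (SE 0.28, adjusted p = 7.73e-07), and Actn3, the α-actinin of fast fibres, by -1.47 (SE 0.22, adjusted p = 1.43e-05). The adult myosin heavy chains, near the top of the intensity scale, differed less. Myh4, the IIb chain, had 12.5, 13.01 and 13.5 in 9 to 14 d legs, against 12.5, 13.8 and 13.9 in 6 h to 4 d legs, a difference of -0.66 (SE 0.20, adjusted p = 0.00868, and 0.13 under the block). Myh1, the IIx chain, differed by -0.36 (SE 0.12, adjusted p = 0.0205), a call lost without leg 48 (adjusted p = 0.083). Myh2 and Myh7, the IIa and slow chains, ranged over more than 6 log2 units within a window and did not pass. Myh2 had 5.88, 9.88 and 12.5 in 9 to 14 d legs and 6.39, 11.5 and 12.98 in 6 h to 4 d legs, a difference of -1.42 (SE 0.96, adjusted p = 0.237). The difference of Myh7 was -0.72 (SE 0.97, adjusted p = 0.569). Under the block 6 fast-fibre genes were lower, and inside code 3 2 were.

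Sarcomere scaffolds and the membrane attachment of the sarcomere moved in both directions. Of 17 Z-disc and stretch-response genes 5 rose and 4 fell (median 0.05), a split that became 3 and 6 after cyclic loess, 3 and 7 after median-centring and 2 and 4 under the block. In the main fit 29.4% were higher and 23.5% lower, against 29% and 15.2% of all genes. Csrp3, the muscle LIM protein of the Z-disc, had 8.93, 12.4 and 12.9 in 9 to 14 d legs, against 6.04, 9.59 and 11.01 in 6 h to 4 d legs. Leg 48 stood well below the other late legs, and the difference was 2.32 (SE 0.62, adjusted p = 0.00424), with 0.0553 under the block. Smpx, a small stretch-responsive protein of the costamere, rose by 0.63 (SE 0.14, adjusted p = 0.00103). The Z-disc proteins Ldb3, Pdlim7 and Myoz1 fell, with log2 differences of -1.78, -1.17 and -1.03 (SE 0.26, 0.16 and 0.16; largest adjusted p 2.61e-05). Of 14 genes of the costamere and dystrophin complex 2 rose and 5 fell (median -0.01), with 1 and 3 under the block. Dysf, dysferlin, which reseals torn membrane, rose by 0.92 (SE 0.12, adjusted p = 3.45e-06). Tln1, talin, which ties integrins to actin, rose by 0.49 (SE 0.12, adjusted p = 0.00171; 0.112 under the block). Cav3, the muscle caveolin, had 6.96, 8.20 and 9.08 in 9 to 14 d legs and 8.55, 9.76 and 10.04 in 6 h to 4 d legs, a log2 difference of -1.45 (SE 0.29, adjusted p = 0.000311). Capn3, the muscle calpain, fell by 0.78 (SE 0.18, adjusted p = 0.00113), and the sarcoglycan Sgcd fell by 0.66 (SE 0.16, adjusted p = 0.00252).

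Membrane excitability genes were mostly lower, and calcium handling genes were mixed. Of 16 channels and pumps 1 rose and 9 fell, with a median of -0.71, or 0 and 6 under the block. Kcnn3, the small-conductance calcium-activated potassium channel known from denervated muscle, had 11.96, 12.3 and 12.4 in 9 to 14 d legs, against 9.07, 9.33 and 12.4 in 6 h to 4 d legs. Early leg 38 reached the highest late values and leg 36 came close. The difference was 2.25 (SE 0.40, adjusted p = 9.89e-05), with 0.0855 under the block. Atp1b2, a β subunit of the sodium pump, had 9.20, 9.71 and 10.9 after 9 to 14 d and 10.7, 12.7 and 13.04 after 6 h to 4 d, a log2 difference of -2.46 (SE 0.37, adjusted p = 1.6e-05). Scn4b, a β subunit of sodium channels, fell by 1.93 (SE 0.29, adjusted p = 1.49e-05). Of 19 genes of calcium release and reuptake 3 rose and 6 fell (median 0.01), with 2 and 2 under the block and 3 and 9 without legs 24, 30, 32, 36 and 38. Beside Sln, Cacnb1, the β subunit of the muscle L-type calcium channel, rose by 1.03 (SE 0.12, adjusted p = 9e-07). Pln, phospholamban, the other short SERCA inhibitor, rose by 0.42 (SE 0.15, adjusted p = 0.0261), a call lost without leg 52 (adjusted p = 0.118), after median-centring and under the block. Trdn, triadin of the release complex, fell by 0.47 (SE 0.074, adjusted p = 2.77e-05). Jph1, a junctophilin that holds the triad together, fell by 0.89 (SE 0.19, adjusted p = 0.000507; 0.147 under the block), and the kinase Camk2g fell by 0.50 (SE 0.12, adjusted p = 0.00166).

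Most genes of glycolysis, the citric acid cycle and the respiratory chain were lower, and fewer of those of fatty acid oxidation. Of 31 genes of glycolysis and glycogen 22 fell and 3 rose (median -0.86), of 22 genes of the citric acid cycle and pyruvate dehydrogenase 19 fell and none rose (median -0.68), and of 50 genes of the respiratory chain and ATP synthase 39 fell and 1 rose (median -0.51). Of 28 genes of fatty acid oxidation 9 fell and 1 rose (median -0.27). That split rested on the weight of some early legs, with 8 lower and 5 higher under array quality weights (median -0.187) and 7 and 6 without legs 24, 30, 32, 36 and 38 (median -0.135). Pfkm, the muscle phosphofructokinase that commits sugar to glycolysis, had 11.4, 11.5 and 11.9 in the 9 to 14 d legs, against 12.1, 13.1 and 13.3 in the 6 h to 4 d legs. Leg 60 stood apart at the top of the late legs and still below the early ones, and the difference was -1.40 (SE 0.14, adjusted p = 1.46e-07). Pygm, the glycogen phosphorylase of muscle, fell by 0.54 (SE 0.06, adjusted p = 4.35e-07). The 3 that rose were Slc2a1, the basal glucose transporter, by 0.74 (SE 0.16, adjusted p = 0.00087), and Pfkl and Hk2, the liver-type phosphofructokinase and a hexokinase, by 0.39 and 0.58 (SE 0.12 and 0.20, adjusted p = 0.0106 and 0.022). Neither Pfkl nor Hk2 passed under the block or after median-centring, Hk2 did not pass after cyclic loess, and Hk2 lost its call without leg 58 or 60 (adjusted p up to 0.0709).

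Ndufs7, an iron-sulphur subunit of complex I, had 11.6, 11.9 and 12.02 in 9 to 14 d legs and 12.3, 13.00 and 13.1 in 6 h to 4 d legs. No late leg reached the early range, and the difference was -1.06 (SE 0.11, adjusted p = 1.53e-07). The complex I genes Ndufa9 and Ndufab1 fell, with log2 differences of -0.76 and -0.63 (SE 0.088 and 0.074, adjusted p = 6.35e-07 and 7.11e-07). Cox8a, a subunit of cytochrome oxidase, was the one respiratory gene that rose, by 0.27 (SE 0.099, adjusted p = 0.0287). That call was lost after cyclic loess or median-centring and without leg 46, 50 or 52 (adjusted p up to 0.101). Sdhb, which belongs to both the respiratory chain and the cycle, fell by 0.78 (SE 0.12, adjusted p = 1.96e-05), Mdh2, mitochondrial malate dehydrogenase, fell by 0.70 (SE 0.09, adjusted p = 2.54e-06), and Pdk2, a kinase that restrains pyruvate dehydrogenase, fell by 0.82 (SE 0.086, adjusted p = 1.71e-07). Hadh, a dehydrogenase of fatty acid β-oxidation, had 8.96, 9.47 and 10.1 in 9 to 14 d legs, against 9.83, 11.1 and 11.9 in 6 h to 4 d legs, a log2 difference of -1.65 (SE 0.21, adjusted p = 2.01e-06). Acaa2, the thiolase of that route, fell by 0.94 (SE 0.20, adjusted p = 0.000574), whereas Cpt1a, the liver-type carnitine transferase, rose by 0.86 (SE 0.16, adjusted p = 0.000237). Of 15 regulators of mitochondrial biogenesis 8 fell and 2 rose (median -0.39), with 5 and 0 under the block. Ppara, a receptor that switches on fatty acid oxidation, fell by 0.72 (SE 0.13, adjusted p = 0.000143), the mitochondrial transcription factor Tfb2m fell by 0.47 (SE 0.088, adjusted p = 0.000162) and Opa1, a fusion protein of the inner membrane, fell by 0.39 (SE 0.082, adjusted p = 0.000545). Gabpa and Tfam, both activators of mitochondrial genes, rose by 0.39 and 0.40 (SE 0.10 and 0.14, adjusted p = 0.0035 and 0.0226). Neither passed under the block, and Tfam did not pass after either rescaling or without leg 58 or 60 (adjusted p up to 0.0845). With the label code as a block the numbers that fell were 13 in glycolysis, 16 in the citric acid cycle, 24 in the respiratory chain and 8 in fatty acid oxidation, and inside code 3 they were 5, 4, 4 and 1.

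Ribosomal protein genes were higher almost without exception. Of 69 cytosolic ribosomal proteins 67 rose and none fell, with a median of 0.58. In 42 of the 69 every late leg lay above every early leg, against 5.29% of all genes. The number that rose was 63 after cyclic loess, 59 after median-centring, 63 under the label code block and 29 inside code 3. Rps26, a protein of the small subunit, had 12.2, 12.3 and 12.3 in the 9 to 14 d legs, against 11.2, 11.4 and 11.7 in the 6 h to 4 d legs. There was a gap between the windows, and the difference was 0.85 (SE 0.068, adjusted p = 7.38e-09). Fau, which encodes a ubiquitin-like protein fused to ribosomal protein S30, rose by 0.69 (SE 0.059, adjusted p = 1.46e-08). Rps20, also of the small subunit, rose by 0.91 (SE 0.077, adjusted p = 1.39e-08). Ribosomal protein genes have near-identical copies in the genome, so the values of Rps20 and of the other genes of this list are uncertain. Rpl3, a large-subunit protein that muscle replaces in part with the paralog RPL3L, rose most of the 67, by 2.12 (SE 0.20, adjusted p = 6.05e-08), and was named after its value was seen.

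Of 32 translation factors and tRNA synthetases 15 rose and 5 fell (median 0.21), or 11 and 8 after cyclic loess, 11 and 7 after median-centring, 11 and 1 under the block and 19 and 2 without legs 24, 30, 32, 36 and 38. Eef1a1, the elongation factor of most tissues that adult muscle largely replaces with EEF1A2, had 13.4, 13.6 and 13.7 in 9 to 14 d legs and 11.8, 12.3 and 12.7 in 6 h to 4 d legs. The difference was 1.28 (SE 0.11, adjusted p = 1.33e-08), with no overlap. Eef1b2, its exchange factor, rose by 1.28 (SE 0.13, adjusted p = 1.39e-07) and the initiation factor subunit Eif3h by 0.66 (SE 0.069, adjusted p = 1.64e-07). Eef2k, the kinase that slows elongation, fell by 0.70 (SE 0.20, adjusted p = 0.00625), and Eif4ebp1, the inhibitor of cap binding, fell by 0.60 (SE 0.19, adjusted p = 0.0131), neither passing under the block (0.243 and 0.122). Of 21 genes of the nucleolus and ribosome biogenesis 7 rose (33.3%, against 29% of all genes) and none fell (median 0.24). The directions became 5 and 2 after cyclic loess and 4 and 2 after median-centring, and under the block 1 rose. Without legs 36 and 38 the number that rose was 12, and 14 without legs 24, 30, 32, 36 and 38. Bop1 and Nhp2, which process ribosomal RNA, rose by 0.68 and 0.62 (SE 0.15 and 0.14, adjusted p = 0.000724 and 0.000835), and neither passed under the block (0.0675 and 0.12).

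Genes of protein breakdown did not move as a block. Fbxo32 and Trim63, the muscle ubiquitin ligases atrogin-1 and MuRF1, did not pass. Fbxo32 had 11.98, 12.7 and 13.3 in the 9 to 14 d legs, against 12.6, 13.02 and 13.4 in the 6 h to 4 d legs, a difference of -0.31 (SE 0.14, adjusted p = 0.0746). Trim63 had 10.9, 11.96 and 12.5 after 9 to 14 d and 11.3, 12.3 and 12.7 after 6 h to 4 d, a difference of -0.43 (SE 0.23, adjusted p = 0.135). Both windows lay near the top of the intensity scale, and without an untreated muscle the level before the regime is not known. Of the 18 ligase and FoxO genes 4 rose and 7 fell (median -0.24), with 3 and 3 under the block. Cdkn1a, the cell cycle inhibitor p21, had 12.8, 13.04 and 13.3 in 9 to 14 d legs, against 9.95, 10.9 and 12.4 in 6 h to 4 d legs, higher by 2.13 (SE 0.26, adjusted p = 1.22e-06) with no overlap. Trim55, the ligase MuRF2, rose by 1.08 (SE 0.18, adjusted p = 5.62e-05) and Nedd4 by 0.52 (SE 0.10, adjusted p = 0.000245). Foxo1, a transcription factor that drives atrophy genes, had 8.79, 9.11 and 9.58 in 9 to 14 d legs and 9.76, 11.1 and 11.8 in 6 h to 4 d legs. These did not overlap, and the difference was -1.70 (SE 0.26, adjusted p = 2e-05). Klf15, a glucocorticoid-responsive factor of muscle, fell by 0.88 (SE 0.12, adjusted p = 3.37e-06), and Foxo3 fell by 0.62 (SE 0.14, adjusted p = 0.00102; 0.115 under the block).

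Of 40 proteasome subunits 9 rose (22.5%, against 29% of all genes) and 1 fell (median 0.26). That number rested on which legs were kept and on the scaling, with 28 higher and 1 lower without legs 36 and 38, 34 and 1 without legs 24, 30, 32, 36 and 38, 4 and 2 after cyclic loess, 2 and 2 after median-centring and 1 and 0 under the block, where the median turned to -0.121. Psmd10, an assembly chaperone of the regulatory particle, had 7.44, 7.56 and 8.07 in 9 to 14 d legs, against 6.24, 6.59 and 7.06 in 6 h to 4 d legs. All late legs were above the early ones, by 1.00 on average (SE 0.12, adjusted p = 7.38e-07). Psmb9, an immunoproteasome subunit, rose by 1.63 (SE 0.39, adjusted p = 0.00163), with leg 52 far above the rest at 11.2. Psme4, a proteasome activator, fell by 0.50 (SE 0.11, adjusted p = 0.00105), and neither it nor Psmb9 passed under the block (0.0684 and 0.0561). Of 27 autophagy and lysosome genes 10 rose and 2 fell (median 0.09), with 8 and 1 under the block. Ctsl, the lysosomal protease cathepsin L, had 11.6, 12.2 and 12.5 after 9 to 14 d, against 9.72, 10.1 and 11.6 after 6 h to 4 d. The lowest late leg stood just above the highest early leg, 38, and the difference was 1.84 (SE 0.24, adjusted p = 2.64e-06). Laptm4b, a lysosomal membrane protein, rose by 1.32 (SE 0.13, adjusted p = 1.22e-07), and Becn1, which starts autophagosomes, by 0.57 (SE 0.085, adjusted p = 1.53e-05). Ulk1, the kinase that triggers autophagy, fell by 0.68 (SE 0.15, adjusted p = 0.000917). Tfeb, which switches on lysosomal genes, fell by 0.28 (SE 0.099, adjusted p = 0.0276), a call lost without leg 52 or 60 (adjusted p up to 0.0959) and under the block.

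Chaperones were higher more often than lower (38.9% and 2.78%), as were all genes tested (29% and 15.2%). Of 36 chaperones 14 rose and 1 fell (median 0.35), with 4 and 1 under the block. Cct2 and Cct5, subunits of the chaperonin that folds actin and tubulin, rose by 0.83 and 0.64 (SE 0.12 and 0.091, adjusted p = 9.94e-06 and 7.78e-06). Hspb8, a small heat shock protein of chaperone-assisted autophagy, rose by 1.32 (SE 0.22, adjusted p = 4.25e-05; 0.0544 under the block). Hspb6, another small heat shock protein of muscle, fell by 0.78 (SE 0.12, adjusted p = 1.94e-05), with no overlap and with leg 48 well below the other late legs. Of 26 genes of the unfolded protein and ATF4 responses 12 rose and 4 fell (median 0.26), with 2 and 2 under the block. Those that rose included endoplasmic reticulum folding genes such as Sdf2l1 (1.07, SE 0.22, adjusted p = 0.000436) and the sensor Atf6 (0.48, SE 0.082, adjusted p = 7.53e-05). Atf4, the transcription factor of the amino acid response, had 8.62, 8.80 and 9.27 in 9 to 14 d legs and 9.63, 9.87 and 10.3 in 6 h to 4 d legs. The late legs lay below the early ones, with a difference of -1.10 (SE 0.13, adjusted p = 1.15e-06). Dnajb9, a co-chaperone of the reticulum, fell by 0.56 (SE 0.099, adjusted p = 9.73e-05).

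Polyamine genes rose in 5 of 10 cases and fell in 1 (median 0.40), with 2 and 1 under the block. Sms, spermine synthase, rose by 0.74 (SE 0.13, adjusted p = 8.07e-05), Oaz1, an antizyme that restrains polyamine synthesis, rose by 0.57 (SE 0.10, adjusted p = 0.000112), and Oaz2, another antizyme, fell by 0.72 (SE 0.15, adjusted p = 0.000525). Of 14 amino acid transporters 2 rose and 5 fell (median -0.22), with 1 and 2 under the block and 2 and 2 without legs 24, 30, 32, 36 and 38. Slc6a6, the taurine transporter, rose by 1.41 (SE 0.28, adjusted p = 0.000376). Slc43a1, a carrier of branched-chain amino acids, had 7.67, 8.55 and 8.77 in 9 to 14 d legs, against 8.98, 10.3 and 10.98 in 6 h to 4 d legs, a log2 difference of -1.84 (SE 0.25, adjusted p = 4.23e-06). Of 27 genes of oxidative stress and metallothioneins 4 rose and 4 fell (median 0.24), with 5 and 3 under the block, where the median turned to -0.0226, and 9 and 3 without legs 24, 30, 32, 36 and 38. Gpx3, secreted glutathione peroxidase, rose by 0.75 (SE 0.20, adjusted p = 0.00394), and Nqo1, a quinone reductase, by 1.20 (SE 0.25, adjusted p = 0.000589; 0.0601 under the block). Sesn1, a sestrin that restrains growth signalling, fell by 1.81 (SE 0.22, adjusted p = 1.11e-06), and Sod2, the mitochondrial superoxide dismutase, fell by 0.38 (SE 0.10, adjusted p = 0.00423).

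Growth signalling genes were split evenly, with 8 of 25 higher and 8 lower (median -0.03), and 2 and 3 under the block. The share of 32% in each direction stands against 29% higher and 15.2% lower of all genes. Fst, follistatin, which binds and blocks myostatin and activins, had 8.80, 9.38 and 9.93 in the 9 to 14 d legs, against 5.90, 6.60 and 7.75 in the 6 h to 4 d legs. The windows did not overlap, and the difference was 2.65 (SE 0.27, adjusted p = 1.17e-07), beside the fall of Mstn itself. The kinase Akt1 rose by 0.74 (SE 0.092, adjusted p = 1.25e-06) and Mtor by 0.43 (SE 0.09, adjusted p = 0.000546; 0.0872 under the block). Ghr, the growth hormone receptor, fell by 1.09 (SE 0.13, adjusted p = 9.43e-07), and Insr, the insulin receptor, fell by 0.51 (SE 0.09, adjusted p = 9.9e-05).

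Matrix genes moved in both directions. Of 13 collagens 1 rose and 2 fell (median -0.09), of 28 matrix glycoproteins 5 rose and 4 fell (median 0.04), and of 19 matrix proteases and inhibitors 1 rose and 3 fell (median -0.01). The shares lower, 15.4%, 14.3% and 15.8%, lay near the 15.2% of all genes, and the shares higher, 7.69%, 17.9% and 5.26%, under their 29%. Under the label code block these counts became 1 and 0 for collagens, 4 and 2 for glycoproteins and 0 and 1 for proteases and inhibitors. Without legs 24, 30, 32, 36 and 38 they were 1 and 6, 4 and 5, and 0 and 5, and the glycoprotein median turned to -0.0837. Of the 5 tendon markers measured 1 rose and 4 fell (median -1.61), with 1 and 1 under the block (median -1.58) and none inside code 3. Their mean level ran between 6.95 and 8.82 in the 9 to 14 d legs and between 7.86 and 9.95 in the 6 h to 4 d legs, while none of 8 fibroblast markers passed (8.33 to 9.74 against 8.44 to 9.46). At an unadjusted p below 0.05 1 of those 8 passed. The tendon markers Scx, a transcription factor, and Fmod and Kera, small matrix proteoglycans, differed by 1.27, -1.61 and -1.70 (SE 0.22, 0.39 and 0.47, adjusted p = 6.6e-05, 0.00198 and 0.0054). Under the block the adjusted p was 0.0335 for Scx, 0.0572 for Fmod and 0.0485 for Kera, and Scx, outside the rule for naming genes, was named after its value was seen. The part of tendon tissue in the matrix values was not tested. Lama5, the laminin α5 chain of basement membranes, had 8.72, 9.36 and 10.2 in 9 to 14 d legs and 6.77, 6.97 and 7.36 in 6 h to 4 d legs. These did not overlap, with a difference of 2.40 (SE 0.17, adjusted p = 2.16e-09). Lamb2, a laminin chain concentrated at the synapse, fell by 0.78 (SE 0.13, adjusted p = 5.4e-05), and Cilp, a secreted matrix protein, rose by 1.63 (SE 0.30, adjusted p = 0.000128). Col8a1, a short-chain collagen, rose by 0.91 (SE 0.20, adjusted p = 0.000985). Its highest late legs were 50 and 52 (8.47 and 8.44), and late legs 46 and 48 (7.12 and 6.44) lay within the early range. Col1a1 and Col1a2, the chains of type I collagen, fell, with log2 differences of -1.50 and -1.06 (SE 0.55 and 0.41, adjusted p = 0.0295 and 0.0382). Neither held under the block, and the calls were lost without 4 of the single legs for Col1a1 (46, 48, 58 or 60, adjusted p up to 0.0828) and without 9 for Col1a2 (12, 14, 18, 20, 34, 46, 48, 58 or 60, up to 0.11). The protease inhibitor Timp3 fell by 0.77 (SE 0.15, adjusted p = 0.000276).

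Of 21 matricellular and TGF-β response genes 6 rose and 4 fell (median 0.07), with 2 and 2 under the block. The shares of 28.6% and 19% lay near those of all genes, 29% and 15.2%. Pmepa1, a TGF-β target that dampens the pathway, had 8.85, 9.86 and 10.8 in 9 to 14 d legs and 8.08, 8.44 and 9.44 in 6 h to 4 d legs, higher by 1.29 (SE 0.23, adjusted p = 0.0001). Ltbp1, which stores latent TGF-β in the matrix, rose by 1.99 (SE 0.33, adjusted p = 4.55e-05), and its relative Ltbp4 fell by 1.27 (SE 0.16, adjusted p = 1.7e-06). Of 20 genes of inflammatory signalling 5 rose and 4 fell (median 0.35), with 1 and 2 under the block. These shares, 25% and 20%, also lay near those of all genes. Il15 and Il6r, a cytokine made by muscle and the interleukin 6 receptor, fell, with log2 differences of -1.69 and -1.46 (SE 0.22 and 0.21, adjusted p = 3e-06 and 1.06e-05). Ccl2, the chemokine that draws monocytes, had 8.09, 10.1 and 11.9 in 9 to 14 d legs, against 6.65, 8.56 and 9.95 in 6 h to 4 d legs. Early and late legs overlapped widely, and the difference was 1.62 (SE 0.50, adjusted p = 0.0109; 0.058 under the block). Of 18 complement and antigen presentation genes 3 rose (16.7%, against 29% of all genes) and none fell (median 0.18). B2m, the light chain of class I antigen-presenting molecules, had 13.5, 13.6 and 13.8 in 9 to 14 d legs and 12.3, 12.6 and 12.9 in 6 h to 4 d legs, higher by 1.06 (SE 0.093, adjusted p = 2.07e-08). Tap1, a peptide transporter for those molecules, rose by 0.99 (SE 0.29, adjusted p = 0.00745), and C3, the central complement protein, rose from the background (1.13, SE 0.30, adjusted p = 0.00375). For C3 legs 50 and 52 were highest (7.82 and 8.42), while late legs 46 and 48 (5.81 and 5.39) stayed under 6.07 and within the early range. Macrophage markers rose in 7 of 14 cases and fell in none, with 5 higher under the block and 0 inside code 3. The mean level of this marker list was 7.40 to 9.36 in the 9 to 14 d legs and 7.22 to 8.41 in the 6 h to 4 d legs, and its part in the immune gene values was not tested. Of 5 mast cell markers 3 fell and none rose (median -0.73), but under the block and inside code 3 none passed, with a median of -0.211 under the block.

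Among the remaining lists, tubulins and microtubule proteins rose in 12 of 19 cases and fell in 2 (median 0.58), with 9 and 1 under the block. Tuba1a, an α-tubulin, had 10.4, 11.6 and 12.1 in the 9 to 14 d legs, against 7.86, 9.15 and 10.2 in the 6 h to 4 d legs, higher by 2.27 (SE 0.27, adjusted p = 9.91e-07). Map1b, a microtubule-associated protein, fell by 0.83 (SE 0.23, adjusted p = 0.00487). Cell cycle genes rose in 8 of 15 cases and fell in 1 (median 0.45), with 5 and 1 under the block, and the list holds brakes as well as drivers of division. Beside the inhibitor Cdkn1a, the retinoblastoma gene Rb1 rose by 0.82 (SE 0.13, adjusted p = 3.54e-05) and the kinase Cdk4 by 0.73 (SE 0.11, adjusted p = 9.94e-06). Bub1, a kinase of the mitotic checkpoint, fell by 0.63 within the background (SE 0.15, adjusted p = 0.00132). Circadian clock genes fell in 6 of 14 cases and rose in none (median -0.12), with 1 under the block. Per1 and Per2, light- and hormone-responsive clock repressors, fell, with log2 differences of -1.16 and -0.57 (SE 0.24 and 0.13, adjusted p = 0.000423 and 0.00157, or 0.0555 and 0.0963 under the block), and Cry2 fell by 0.53 (SE 0.14, adjusted p = 0.00333). The labels give no time of day. Angiogenic and vascular genes fell in 9 of 19 cases and rose in none (median -0.30), with 2 under the block. Epas1, the hypoxia factor HIF-2α, fell by 1.05 (SE 0.19, adjusted p = 0.000115), and Angpt1, a growth factor that stabilises vessels, fell by 0.91 (SE 0.16, adjusted p = 0.000111). Of 8 endothelial markers 4 fell and none rose, or 1 and none under the block, with a mean level of 7.33 to 7.81 in 9 to 14 d legs and 7.55 to 8.09 in 6 h to 4 d legs. Their part in the vascular values was not tested.

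The 5 to 8 d legs, 4 in number, lay between the other windows or beyond the late one for most of the large changes. Of the 330 genes at least 2-fold higher at 9 to 14 d, 312 had a 5 to 8 d mean above the 6 h to 4 d mean, and in 83 it was above the 9 to 14 d mean too. Of the 219 genes at least 2-fold lower, the 5 to 8 d mean was below the 6 h to 4 d mean in 219 and below the 9 to 14 d mean in 106. These genes were chosen by the gap between the same early and late means, so the counts were tilted in advance. The share over all genes was not counted. Over all genes the median difference of 5 to 8 d minus 6 h to 4 d was 0.0639. Chrna1 averaged 8.24 at 6 h to 4 d, 11.9 at 5 to 8 d and 13.1 at 9 to 14 d. Its fetal relative Chrng averaged 6.66, 7.75 and 9.36 in the same order of windows. Ankrd1 averaged 8.01, 12.6 and 12.5, so that its middle and late means lay close together. Slc51a, in contrast, averaged 5.76, 6.22 and 9.39. Pfkfb1 averaged 9.98, 6.07 and 6.54. No order among the windows was tested.

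The same contrast of durations in the unloaded legs, taken from the same rats, passed for 4232 genes (45.6%), 2663 higher (28.7%) and 1569 lower (16.9%). For Chrna1 the log2 difference was 4.90 in loaded and 4.76 in unloaded legs. Ankrd1 differed by 4.46 in loaded and 4.29 in unloaded legs, Slc16a3 by -3.75 and -3.18, and Rps26 by 0.85 and 1.01. The 2 legs of a rat share that rat, so these pairs of values are given side by side only. Tested directly, with the rat as a block, the change with duration differed between loaded and unloaded legs in none of the 9289 genes by limma at an adjusted p below 0.05, with 717 genes (7.72%) at an unadjusted p below 0.05. Leaving out the rat of loaded leg 46 gave 3 passing genes, that of leg 48 gave 2, those of legs 18 and 58 gave 1 each, and omission of any other single rat gave 0. The smallest adjusted p with all rats was 0.0664, for Pmepa1 and Eln. Pmepa1 changed by 1.29 in loaded legs and by 0.0026 in unloaded legs, a difference between the changes of 1.29 (SE 0.23). Eln, the elastin gene, had log2 differences of 0.40 in loaded and -0.18 in unloaded legs, 0.58 apart (SE 0.11). The next in rank were Wdr62, a spindle pole protein, with 1.53 in loaded and 0.87 in unloaded legs, the trafficking adaptor Tom1, with 0.64 and 0.03, and Klhl25, a ubiquitin ligase adaptor near background, with -0.55 and 0.30 (adjusted p of the difference 0.271 for each). In the loaded legs Eln, Tom1 and Klhl25 did not pass under the label code block. A p above the threshold does not show that loaded and unloaded legs changed alike. For Chrna1 the difference between the changes was 0.13 (SE 0.47).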

How the data were processed

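The data were RMA log2 intensities for 26208 probe sets on 46 single-colour Affymetrix arrays, deposited by the authors and used as given; RMA is named in the submitters' processing notes, with no version. RMA scales all arrays to one distribution, so differences are relative to the other genes of an array. The depth of an array is not a count, and the precision is limited by the number of arrays. Of the probe sets, 15088 had 1 gene symbol, 323 had several and 10797 had none listed, and only those with 1 were named; 15058 matched RefSeq by gene ID. Probe sets brighter than the median of the array they were on in at least 4 of the 46 arrays were kept (14834), and the kept probe set of highest mean stood for each gene, which left 9289 genes.

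Groups came from the sample labels. limma 3.58.1 in R 4.3.3 was fitted to the 23 loaded arrays, with moderated variances and Benjamini-Hochberg adjustment, and the 9 to 14 d minus 6 h to 4 d contrast was taken. The change in loaded minus unloaded legs was fitted on differences within each rat, pairing left and right legs by consecutive leg numbers, a pairing inferred from the labels. The script was tested on simulated data. A gene whose mean in either window lay under the lowest array median (6.07) was given no fold.

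The 36 pathway lists, the marker lists and the genes were chosen with earlier results of these data known. Genes were named by rule: the 10 largest rises and falls above background, the 5 largest of each with a mean under it, up to 3 passing members of each list in each direction by smallest adjusted p, the receptor subunits, the myosin heavy chains, Fbxo32 and Trim63, and the 5 genes with the smallest adjusted p for the difference between legs. The rule named 188 genes, of which the text gives 165; the other 4 in the text, Musk, Runx1, Rpl3 and Scx, were named after their values were seen. Alternatives were cyclic loess, median-centring, other filters and probe set summaries, trended robust variances, array quality weights, the label code as fixed or random block or within code 3, a minimum fold of 1.5, the 19 arrays alone, legs 22 and 28 averaged, and arrays left out. Promoter sequences came from RefSeq (GRCr8). Proteins were not used here.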

Additional observations from a re-analysis of the deposited data

Results flagged for a closer look

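Among the 169 genes with values in the text, 13 (7.69%) had a 9 to 14 d leg whose gap to its nearest neighbour took up more of the window's range than the critical value of Dixon's test for 6 samples allows. Chance alone flags about 1 in 20 groups. Leg 48 was the low value for Ankrd1 (9.929, next 12.7), Csrp3 (8.935, next 11.86), Hspb6 (11.91, next 12.58) and Fgf2 (5.372, next 5.794). Leg 60 was the high value for Mdh2 (12.86, next 12.55), Mylk2 (10.83, next 10.12) and Pfkm (11.92, next 11.58). Leg 52 was high for Psmb9 (11.24, next 8.473) and Pln (7.617, next 6.916) and low for Car12 (4.507, next 5.251). Leg 50 was high for Mymk (11.39, next 9.216), leg 58 for Psmd10 (8.069, next 7.616), and leg 46 was low for Lynx1 (6.864, next 7.995). All of these differences except that of Pln passed with any 1 array left out. Pln did not pass without leg 52 (limma adjusted p = 0.118).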

How the results depend on the processing

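The label code as a fixed block left 1862 genes passing (1199 higher, 663 lower; 201 and 115 at least 2-fold), or 1569 in the 19 arrays alone (994 and 575; 188 and 111), a fit chosen after seeing the data. Within code 3, 331 passed (219 and 112; 99 and 56), with 4 legs against 4. A minimum fold of 1.5 left 302 (192 and 110). Median-centring gave 1761 higher and 2338 lower. The filter on all 46 arrays left 213 genes at least 2-fold higher. Without legs 24, 30, 32, 36 and 38, also chosen after seeing the data, 337 were at least 2-fold lower. Leaving out 1 array in turn gave 3614 to 4340 passing genes. The difference between loaded and unloaded legs gave 0 to 3 genes when 1 rat was left out. The minimum fold was run for the counts of all genes alone. Over the other alternatives the 169 genes gave 5434 values that kept direction and side of the threshold. Another 270 values lost the call, 5 gained it and none reversed. Of the 165 genes called in the main fit, 40 lost the call under the block. Inside code 3, 115 of the 165 lost it and 50 kept it. Those 115 include Chrng, Chrne, Musk, Runx1, Ankrd1, Sln, Myf5, Foxo1 and Actn3. The causes were not tested. The contrast between the windows could not be paired, because they hold different rats and share no replicate numbers. Values under 6.07, in background, have uncertain sizes.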
